A study of Mus musculus with 14 samples.

Results

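The wild type livers of a mouse series on 2 genotypes were described as a baseline of transcript signal: which genes gave most of the signal, which functional classes they belonged to, and how far single animals departed from the group. The members were chosen by their label, and 7 of the 14 arrays carry it. Each stands for 1 C57BL/6 mouse aged 15 to 20 weeks, kept on standard chow. Animals 3 and 4 were female, and animals 1, 2, 5, 6 and 7 were male. Betaine in the drinking water is stated for homozygous animals only, so the wild type group is the untreated one, and the other genotype was not analysed here. The labels give liver as tissue and primary hepatocytes as cell type. The sample codes in the labels follow different patterns, called naming series here: animal 1 was in series A, animals 2 to 5 in series B, and animals 6 and 7 in series C. What these patterns stand for is not given in the sources used here.

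The liver parenchyma consists mainly of hepatocytes, which secrete most plasma proteins and lipoproteins, store iron in ferritin, and run the urea, methionine and ketone pathways. Their messenger RNA pool is dominated by transcripts of secreted proteins, with albumin the textbook example. Other liver cells, such as stellate, endothelial, bile duct and Kupffer cells, are far fewer by mass.

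Each array read 284 mouse oligonucleotides for 271 genes in 4 spots each, beside 4 plant control oligonucleotides. The value used was spot intensity minus local background, averaged over the spots that the authors had not blanked. A gene's share is this value as a percent of the sum over all genes on the same array, with values below 0 set to 0. A share is a share of hybridisation signal and depends on the oligonucleotide as well as on the transcript, so ranks between genes are ranks of signal. The summed intensity ran from 14651 on animal 2 to 56698 on animal 7. A gene counted as above background when it exceeded the mean plus 2 SD of the plant control spots of its array, a limit that ran from -0.207 on animal 2 to 9.81 on animal 6. Between 108 and 149 genes passed on the arrays other than that of animal 6, which had 69.

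The arrays of animals 1 and 6 stood apart. Over the 55 genes above background on all 7 arrays, animal 1 held the highest or lowest share of 39 genes and animal 6 of 35, against 3 to 14 for each other animal. Results that rest on either animal are given below with the values that show it.

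The markers set for hepatocytes lay at the head of the ranking. They were chosen with earlier results of these data known, so their place there is not independent support for a cell type. The 5 markers Alb, Apoc1, Ftl1, Ahsg and Fabp1 were above background on all 7 arrays, and together they took 32.6% of the signal on animal 6 and 44.2% to 51.8% on the other animals. Ftl1, the ferritin light chain, is expressed by many cell types as well. Of 6 stellate cell and fibroblast markers, 4 were on the array, with a summed share of 0.0945% to 0.407%. Most of it came from Fn1, fibronectin, which hepatocytes also secrete, except on animal 6, where Fn1 was at 0.0118% and Col3a1 at 0.081%. The other collagen markers Col1a1 and Col1a2 had mean shares of 0.009% and 0.002%. The 4 endothelial markers on the array, Pecam1, Vcam1, Icam1 and Kdr, summed to at most 0.0923%, and the bile duct keratin gene Krt19 was above background on no array. No Kupffer cell, leukocyte or blood marker from the fixed marker set was among the oligonucleotides.

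The signal was concentrated in few genes. On single arrays, 4 to 7 genes made up the first 50% of the signal, and 32 to 40 genes the first 90%. The 10 genes of highest mean share together took 63.4% ± 3.46 (SD, n = 7), between 57.3% and 68.7%. The 20 genes of highest mean share took 78.9% ± 2.43 (SD, n = 7). The median gene had a mean share of 0.0146%. Of the 271 genes, 98 were above background on no array, and 32 passed on every array but that of animal 6.

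**Figure D1:**
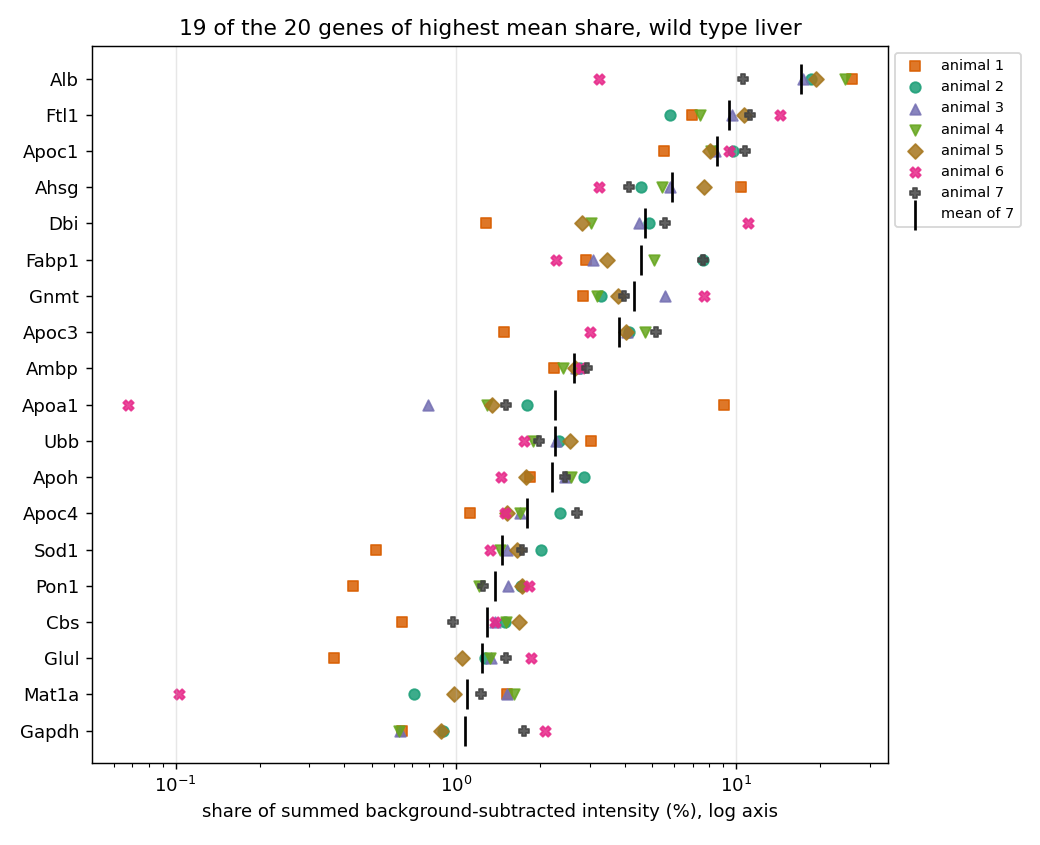
Share of the summed signal (percent, log axis) for 19 of the 20 genes of highest mean share, with 1 symbol per animal and a bar at the mean of 7. Alb lies between 17.3% and 25.9% on animals 1 to 5 and at 3.24% on animal 6, while the 7 values of Ambp lie between 2.23% and 2.93%.

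Alb, albumin, is the main carrier protein of plasma. Its share was 25.9%, 18.6%, 17.3%, 24.6% and 19.3% on animals 1 to 5, 3.24% on animal 6 and 10.6% on animal 7, a mean of 17.1% ± 7.91 (SD, n = 7). It ranked first on animals 1 to 5, but seventh on animal 6. Without animal 6 the mean was 19.4% ± 5.51 (SD, n = 6). Ftl1 ranked first on animals 6 and 7, with 14.4% and 11.3%, and lay between 5.81% and 10.7% on the others, a mean of 9.45% ± 2.97 (SD, n = 7). No other gene was first on any array.

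The promoter windows of these 2 genes are shown, as the genes that took first rank. They are RefSeq windows on build GRCm38.p6 and run from 250 bases before the annotated start to 50 bases after it, 5′ to 3′ on the strand of the gene. The Alb window is chr5:90460620-90460919 on the plus strand and the Ftl1 window is chr7:45459837-45460136 on the minus strand. Capitals mark the letters CCAAT and TATAAA on either strand, so ATTGG is CCAAT read from the other strand.
Alb: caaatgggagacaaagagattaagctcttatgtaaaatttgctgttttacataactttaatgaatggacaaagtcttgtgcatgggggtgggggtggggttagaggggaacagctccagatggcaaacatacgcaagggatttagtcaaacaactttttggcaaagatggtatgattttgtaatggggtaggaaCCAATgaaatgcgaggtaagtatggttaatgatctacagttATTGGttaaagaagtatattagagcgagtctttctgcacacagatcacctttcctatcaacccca
Ftl1: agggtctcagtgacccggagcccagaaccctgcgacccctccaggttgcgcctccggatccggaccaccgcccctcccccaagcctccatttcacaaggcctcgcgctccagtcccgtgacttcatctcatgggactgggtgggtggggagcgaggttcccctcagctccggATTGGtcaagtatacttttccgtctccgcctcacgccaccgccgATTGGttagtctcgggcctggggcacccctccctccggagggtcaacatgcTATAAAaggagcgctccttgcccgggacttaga
The Alb window held CCAAT 56 and 15 bases before the start, the latter as ATTGG, and no TATAAA. The Ftl1 window held ATTGG 78 and 34 bases before the start, and TATAAA at base 18 after it. Among the 20 top genes, 16 had such a window. CCAAT occurred in 12 of these 16 genes, against 37.4% of all 32851 windows, and TATAAA in 3 of 16 (Ftl1, Fabp1 and Sod1), against 13.6% of all windows. A gene counted when any of its windows matched, and Dbi and Ubb had several, whereas the percentages count single windows, so the units differ. A match describes these letters and is neither a binding site nor a cause.

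Apolipoproteins, which package lipids into lipoproteins, followed albumin. Apoc1, an inhibitor of lipoprotein uptake, took 8.59% ± 1.66 (SD, n = 7), from 5.55% on animal 1 to 10.7% on animal 7. Apoc3, which slows triglyceride clearance, took 3.81% ± 1.23 (SD, n = 7), with its lowest share of 1.48% on animal 1. Apoa1, which forms the core of high-density lipoprotein, had a mean of 2.27% that was set by animal 1, where it took 9.06%. On the other animals it took 0.0675% (animal 6) to 1.79% (animal 2). Its rank ran from 3 to 69, the widest of the top 10 genes, and it was the one gene of these 10 that was not among the 20 brightest on every array. Apoh and Apoc4 took 2.20% and 1.80%. Apob, the structural protein of very low-density lipoprotein, was above background on no array, with a mean share of 0.009%. Together the 9 apolipoprotein genes took 20.0% ± 2.68 (SD, n = 7), between 16.1% and 24.4%, and 7 of them were above background on all 7 arrays.

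Other secreted proteins were Ahsg, fetuin A, and Ambp, the precursor of alpha-1-microglobulin and bikunin. Ahsg took 10.4% on animal 1, 3.25% on animal 6 and 4.13% to 7.68% on the others. Ambp took 2.23% to 2.93% and was the steadiest of the 55 genes, with a coefficient of variation (CV) over animals of 9.06%. The 6 plasma protein genes, albumin among them, took 28.1% ± 9.92 (SD, n = 7). This sum was 10.7% on animal 6, 20.4% on animal 7, and 28.5% to 40.9% on animals 1 to 5, the same order of animals as for Alb, which is part of the sum.

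Binding proteins for lipid came next. Dbi, which binds acyl-CoA, took 1.28% on animal 1, 11.1% on animal 6 and 2.82% to 5.60% on the other animals. Fabp1, the liver fatty acid binding protein, took 4.58% ± 2.25 (SD, n = 7), with 7.65% and 7.62% on animals 2 and 7, and 2.28% on animal 6.

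Enzymes of the methionine cycle and its branches were prominent. Gnmt, which uses S-adenosylmethionine to methylate glycine, took 4.33% ± 1.71 (SD, n = 7), from 2.84% on animal 1 to 7.66% on animal 6. Cbs, which joins homocysteine to serine, took 1.30% ± 0.36 (SD, n = 7), with 0.644% on animal 1. Mat1a, which makes S-adenosylmethionine in hepatocytes, took 0.711% to 1.61% on 6 animals and 0.103% on animal 6. Bhmt, which remethylates homocysteine with betaine, took 0.844% on animal 1 and at most 0.154% on the others. The methionine cycle list of 9 genes took 6.20% ± 1.26 (SD, n = 7). In the sulfur list, Cdo1, which oxidises cysteine, was the second steadiest gene (CV 12.5%, share 0.534% to 0.731%). Csad, which makes the taurine precursor, was among the most variable, from 0.0654% on animal 1 to 0.879% on animal 6. That list of 7 genes took 2.86% ± 0.65 (SD, n = 7).

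Nitrogen and glucose genes had smaller shares. Glul, glutamine synthetase, took 0.366% on animal 1 and 1.05% to 1.85% on the other animals. Arg1, the last enzyme of the urea cycle, took 1.02% ± 0.29 (SD, n = 7). Cps1, its first enzyme, took 0.814% on animal 1 and 0.183% or less elsewhere, and was below background on animal 6. The urea and glutamine list of 7 genes took 2.89% ± 0.42 (SD, n = 7). G6pc, glucose-6-phosphatase, took 1.35% on animal 3 and 0.291% to 0.577% on the others. Gapdh, a glycolytic enzyme, took 2.08% and 1.75% on animals 6 and 7 and 0.628% to 0.899% on animals 1 to 5.

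Housekeeping and stress genes filled the rest of the top 20. The ubiquitin gene Ubb took 2.26% ± 0.44 (SD, n = 7), from 1.75% on animal 6 to 3.04% on animal 1. Sod1, superoxide dismutase, took 0.518% on animal 1 and 1.32% to 2.01% on the other animals. Pon1, a secreted lactonase carried on high-density lipoprotein, took 0.430% on animal 1 and 1.21% to 1.82% elsewhere. The ribosomal protein list, which holds Rps28, Rpl30, Rps3a1, Rps2 and Rpl3, summed to 1.71% ± 0.54 (SD, n = 7). Further ribosomal protein genes on the array lay outside that list, among them Rpl13 at 0.739% and Rpl23 at 0.524%. Transporters were dim: Slc10a1, the uptake carrier for bile salts, took 0.358%, and the bile acid and transporter list of 10 genes took 1.42% ± 0.30 (SD, n = 7).

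**Figure D2:**
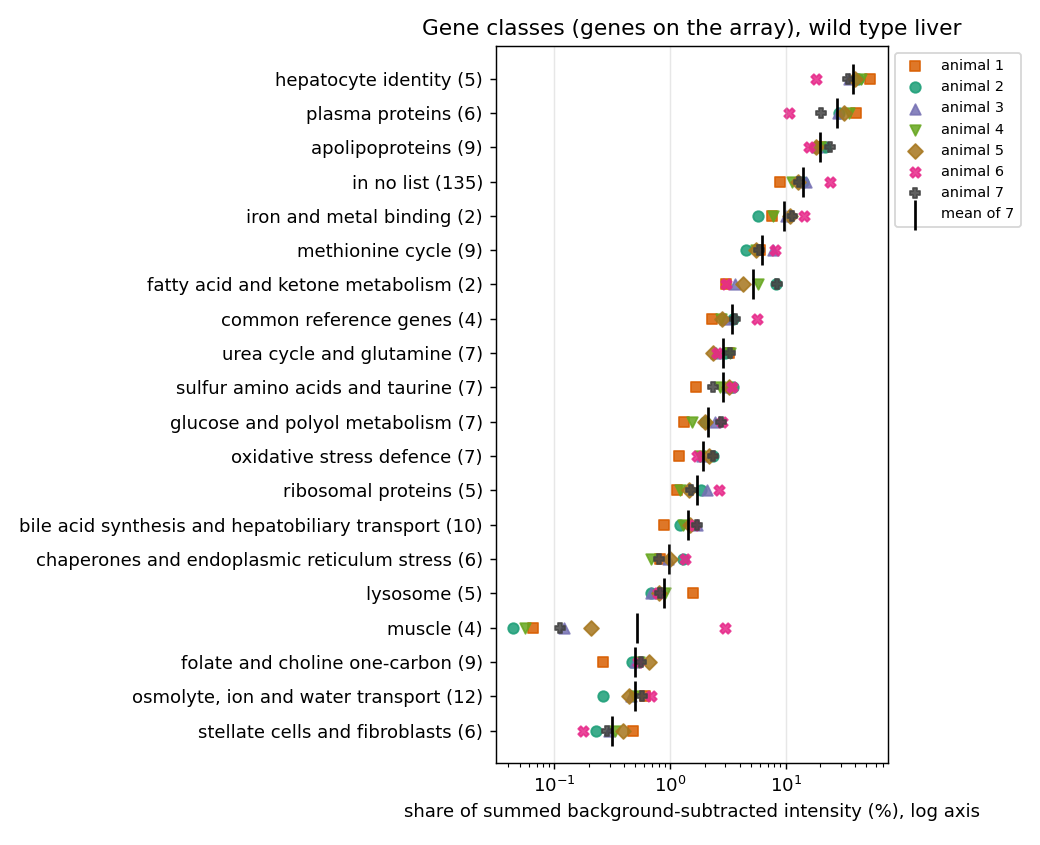
Summed share of the signal (percent, log axis) per gene list, with the number of genes on the array in brackets, 1 symbol per animal and a bar at the mean of 7. Lists overlap, and "in no list" holds the 135 genes outside every list; the muscle list is at 3.00% on animal 6 and at 0.0442% to 0.207% on the other animals.

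Neighbours in the ranking were mostly not separated. Of the 19 pairs of neighbours among the 20 top genes, 0 had the same order on all 7 arrays and 4 had it on 6 arrays. Among these 4 were Apoc1 above Ahsg, Apoc3 above Ambp and Ambp above Apoa1. Alb exceeded Ftl1 on 5 of 7 arrays. Of the 32 genes that were among the 20 brightest on any array, 12 were so on all 7: Alb, Ftl1, Apoc1, Ahsg, Dbi, Fabp1, Gnmt, Apoc3, Ambp, Ubb, Apoh and Apoc4.

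The order of all 271 genes was compared between arrays by Spearman correlation across genes, which are not independent replicates and share the array design. The 21 pairs of arrays ran from 0.590 to 0.891, with a median of 0.839. Pairs with animal 6 ran from 0.590 to 0.757, and pairs without it from 0.778 to 0.891. The 6 pairs within series B ran from 0.858 to 0.891, whereas animals 6 and 7, the only pair in series C, were at 0.715. No pair held identical values.

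**Figure D3:**
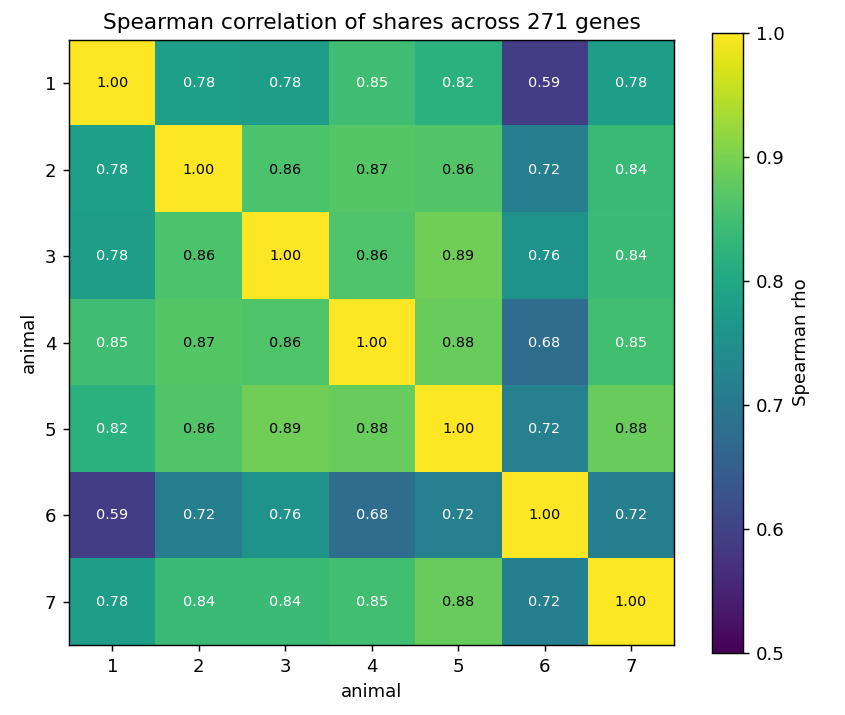
Spearman correlation of shares across 271 genes for each pair of animals, as colour and number. Animals 2 to 5, which share a naming series, lie at 0.858 to 0.891 among themselves, and the pair of animals 1 and 6 is lowest at 0.590.

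Spread between animals was set against spread between the spots of 1 array. Over the 55 genes, the CV of the share over 7 animals had a median of 40.4%, against a median of 19.3% for spots. It exceeded the gene's own spot CV in 51 of 55 genes. Leaving out animal 6 gave a median of 34.1%. In series B alone, with 4 animals, the median was 22.9%, and 36 of 55 genes exceeded their spot CV. Spots of 1 array share the labelled RNA, so this spot CV covers printing and reading and not labelling. It describes single spots, whereas each share rests on a mean of up to 4 spots. The medians and counts above therefore do not compare like with like.

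The steadiest genes after Ambp and Cdo1 were Echs1, a mitochondrial enzyme of fatty acid oxidation, Apoc1, Ubb and Apoh, with CVs of 18.9%, 19.3%, 19.6% and 23.3%. The most variable were Apoa1 (135%), the metallothionein gene Mt1 (88.7%), the sodium pump gene Atp1b1 (88.5%), Csad (76.0%), the nucleoside diphosphate kinase gene Nme2 (71.6%) and the taurine carrier gene Slc6a6 (67.3%). Apoa1 had a CV of 31.2% in series B, and Slc6a6 of 7.95%. Mt1 kept a CV of 77.5% there, with shares of 0.022%, 0.515%, 0.294% and 0.220% on animals 2 to 5. Atp1b1 was dim, and on animal 2 it passed only because the limit there was below 0.

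**Figure D4:**
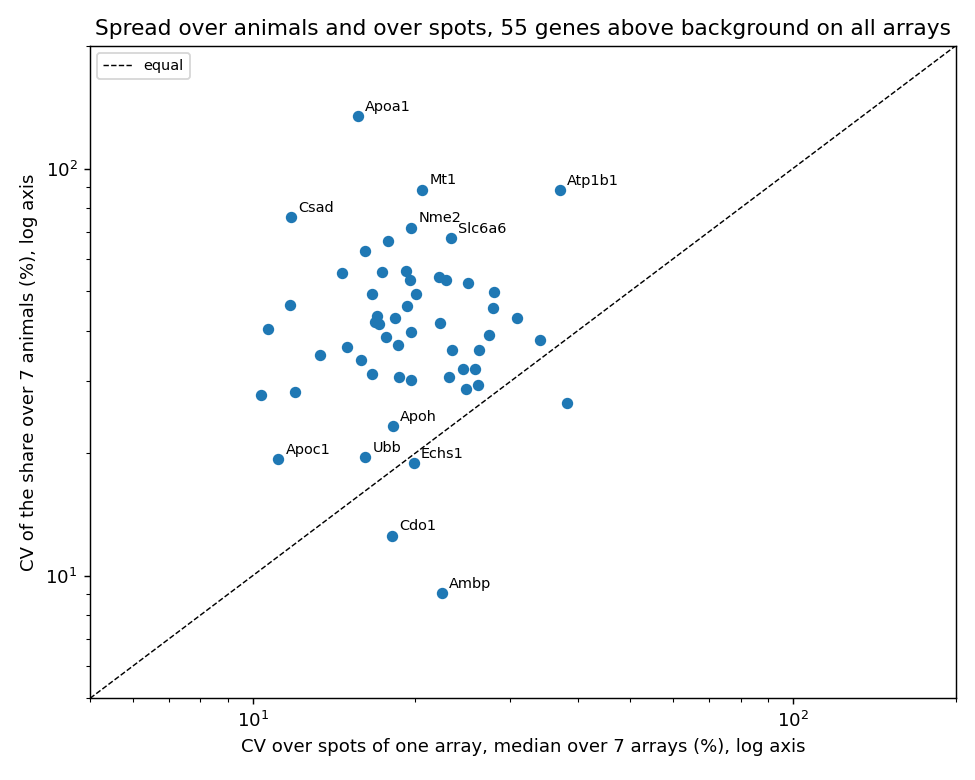
CV of the share over 7 animals against the CV over single spots of the same oligonucleotide (both percent, log axes), for the 55 genes above background on all arrays. The dashed line marks equality, although each share rests on a mean of spots and the spot CV on single spots. Ambp lies at 9.06% over animals, below the line, and Apoa1 at 135%, far above it.

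Animal 6 combined low shares of some liver genes with signal from some muscle genes. On animal 6, Alb was at 3.24% against 10.6% to 25.9% elsewhere, Apoa1 at 0.0675% against 0.795% to 9.06%, and Mat1a at 0.103% against 0.711% to 1.61%. The muscle list of Slc25a4, Tcap, Mb and Acta1 took 3.00% on animal 6 and 0.0442% to 0.207% on the others. Slc25a4, the adenine nucleotide carrier of heart and muscle mitochondria, read an intensity of 263 on animal 6 against a median of 3.50 on the others. Tcap, a titin cap protein of the sarcomere, read 164 against a median of 10.6. Mb, myoglobin, read 18 on animal 6 against a median of 10 on the others. Animals 5 and 7 read higher for Mb, at 32.8 and 20.7, although its share was highest on animal 6 at 0.122%. Acta1, skeletal muscle actin, read below 0 on animal 6. Chosen after their values were seen, the adenylate kinase gene Ak1 read 113.5 there and at most 1.5 elsewhere, and the slow myosin gene Myh7 read 65 and at most 11 elsewhere. Other muscle genes outside the list, also picked afterwards, were not raised: Ryr1, Pln and Ankrd2 read -0.5, 2 and 2.5 on animal 6, below background. The hepatocyte genes Ambp and Apoc1 had shares of 2.80% and 9.48% on animal 6, within the range of the others. Whether the muscle signal has a part in the low liver shares was not tested. The labels name both liver tissue and primary hepatocytes. In a sample of mixed cells, fewer cells of a type and less RNA per cell cannot be told apart.

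**Figure D5:**
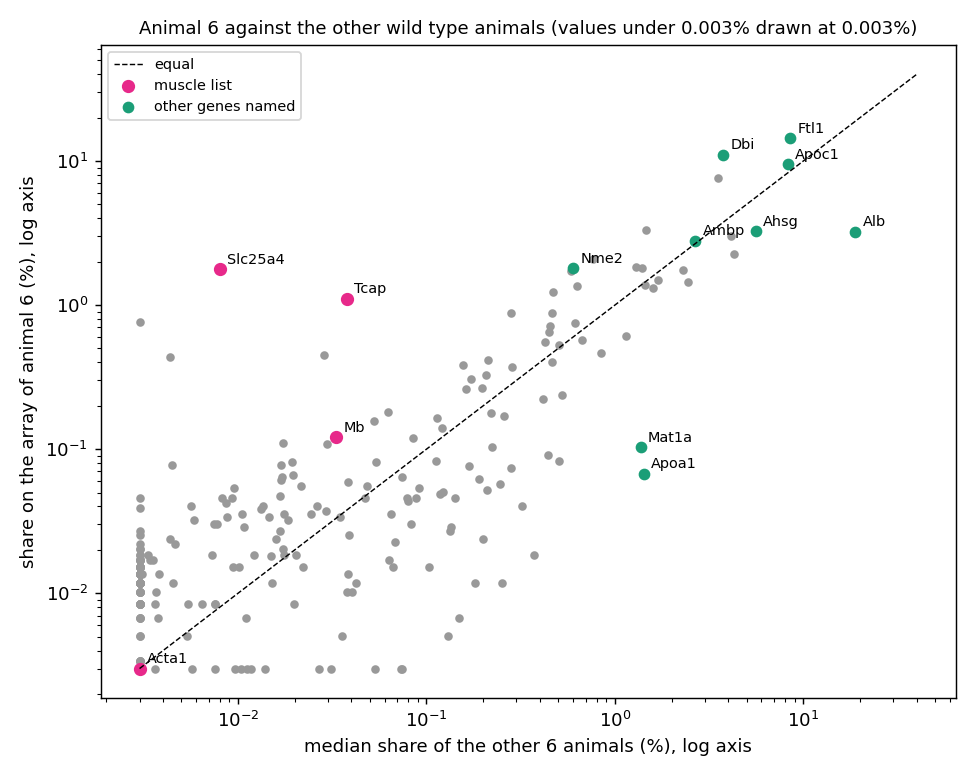
Share on the array of animal 6 against the median share of the other 6 animals (percent, log axes), 1 point per gene, with values under 0.003% drawn at 0.003%. Slc25a4 and Tcap lie far above the dashed line of equality, and Alb, Mat1a and Apoa1 below it.

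Animal 1, the only wild type array of series A, showed another pattern. Apoa1, Ahsg, Bhmt, Cps1 and Mt1 had their highest shares there. Csad, Pon1, Dbi, Glul and Sod1 had their lowest. For Csad this depends on the oligonucleotide. Another one also had its lowest intensity there, at 32.5, but the dimmest had its highest, at 17.75. Its muscle list took 0.0654%. With 1 array in series A, animal and series cannot be told apart.

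Females and males were compared with limma (lmFit and eBayes, two-sided, Benjamini-Hochberg adjustment) on log2 intensity after normexp with an offset of 50 and quantile normalization. The 127 genes above background on at least 4 arrays were tested, with 2 females against 5 males. No gene was called at an adjusted p below 0.05, which is 0% of the genes tested, and 1 gene had an unadjusted p below 0.05. That gene, named alpha-1-B glycoprotein-like in the files, read intensities of 426 and 290 in the females. In the males it read 72.0, 1.25, 190, 2.75 and -1.25 on animals 1, 2, 5, 6 and 7. Every female exceeded every male, and the males spread widely. The sexes did not overlap in 3 of the 127 genes (2.36%), with females higher in 2 and lower in 1. The log2 difference, female minus male, was 1.85 (SE 0.41), with limma adjusted p = 0.451. Next came Gapdh at -0.71 (SE 0.29) and G6pc at 0.61 (SE 0.28), both with limma adjusted p = 0.991. G6pc was led by female animal 3, and without it the difference was 0.138. Aqp8, a water channel, and Cth, which splits cystathionine, were at 0.31 (SE 0.16) and 0.27 (SE 0.17). Hspb1, Apoa4 and Slc6a6 were at -0.32, -0.24 and -0.15. Both females were in series B, and within that series the 2 males read 1.25 and 190 for alpha-1-B glycoprotein-like.

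Naming series B (4 arrays) and C (2 arrays) were compared in the same way as a check of array groups. No gene was called (0% of 127), with a smallest limma adjusted p of 0.293, and 15 genes had an unadjusted p below 0.05, 8 higher and 7 lower in series B. Gapdh differed by -0.96 (SE 0.18), series B minus series C. Alb differed by 1.58 (SE 0.45), Ahsg by 0.69 (SE 0.18), the ribosomal protein gene Rpl23 by 0.49 (SE 0.15) and Cbs by 0.44 (SE 0.11). Quantile normalization gave Alb the same log2 value, 12.4146, on animals 2, 4 and 5, so its spread in series B is partly set by the method. Glul, Sod2 and Abcc5 were at -0.26, -0.26 and -0.33. The groups did not overlap for 25 of 127 genes (19.7%). Series C holds animal 6. Without animal 6 the Alb difference was 0.779, and without animal 7, which leaves animal 6 alone and assumes that it varies like the other arrays, 20 genes were called.

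Where a gene had several oligonucleotides, their signals differed. The brightest Cbs oligonucleotide averaged 376 and the dimmest 27.2, a ratio of 13.8, in that order on all 7 arrays. On animal 1 the brightest had its lowest intensity, 162.5, and the dimmest its highest, 79.25. For Csad and Ctsb, a lysosomal protease, the brightest averaged 97.8 and 83.3, and the dimmest averaged 4.17 and 4.36 and was above background on 1 and 4 arrays, so no ratio is given. The pair for Ahcy, which splits S-adenosylhomocysteine, differed by 1.37 times. Each gene was represented by its oligonucleotide of highest mean share, so a rank can move by the choice of oligonucleotide.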

How the data were processed

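Liver RNA of 7 wild type mice (50 µg per array) was labelled with 1 dye from oligo-dT primers, per the labels' protocols. Per the file headers, each deposited array file lists linear spot and background intensity for 4 spots per oligonucleotide, and columns scaled by the authors. Spots blank in the scaled columns (85 of 7952) were left out. No source used here names the scanner or image software. On 1 array a shifted header was read by array index. Names came from accessions for 191 oligonucleotides, RefSeq symbols for 51, synonyms for 17, gene names in the files for 23 and the files' own name for 2.

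Shares, limits and CVs were computed in Python 3.11.15 with pandas 2.3.3, and tests in R 4.3.3 with limma 3.58.1 (normexp, offset 50, quantile). A gene with several oligonucleotides took the one of highest mean share. Named genes were the 20 of highest mean share, the 6 most and 6 least variable, the cell type markers, the 2 brightest of each list, the muscle list, and for each test the 4 higher and 4 lower genes of smallest p. Bhmt, Cps1, Apob, Ahcy, Rpl13, Ak1, Myh7, Ryr1, Pln, Ankrd2 and Nppa lie outside this rule and were chosen after their values were seen. Members and lists were chosen with earlier results of these data known. The labels number separate animals, and each was measured on 1 array, so spread between animals includes that of labelling and hybridisation, and the number of arrays limits the precision. On simulated arrays of 127 genes the fit found 83.7% of true log2 changes of 2 for sex and 76% for series, with 7.38% and 9.88% false among its calls. Among the 60 brightest genes, the median size of the estimate was 1.34 for sex and 1.44 for series. The simulated noise was independent and of equal spread on every array. No simulated array stood apart as those of animals 1 and 6 did, so these rates need not hold for the real arrays.

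The deposited value table, used as an alternative, holds intensity values of 103 oligonucleotides. They correlated with those of the array files at 0.994 or more and were a multiple of background-subtracted intensity, from 0.372 on animal 7 to 1.51 on animal 2, so its scale is linear without centring of genes. On animal 5 the multiple ran from 0.363 to 0.776 (5th to 95th percentile), and how those values were made stays unknown. Its medians for animals 1 to 7 are 50, 45.5, 41.8, 40.8, 46.7, 32.8 and 42.2. No per-sample column was left unmapped. A few genes covered by this rule are not reported here.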

Additional observations from a re-analysis of the deposited data

Results flagged for a closer look

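In 22 of 95 sets of 7 values, the highest or lowest animal lay farther from its nearest neighbour than Dixon's 95% critical share of the range. About 1 in 20 sets would be flagged by chance if values were normal and sets were chosen without sight of them. Here the sets include genes named for their high spread, and lists chosen with earlier results of these data known. In some dim genes, such as Krt19, several animals share the same floored value. The number of flagged sets therefore cannot be judged against that rate. The sets overlap, and 12 of the flagged values belong to animal 6 and 7 to animal 1.

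On animal 6 the muscle list was at 3.00%, with Slc25a4 at 1.78% and Tcap at 1.11%, against at most 0.207%, 0.0532% and 0.0731% on the other animals. Also high on animal 6 were Nme2 at 1.81%, the heat shock gene Hspb1 at 0.454%, Atp1b1 at 0.108% and the list of common reference genes, which holds Gapdh, at 5.69%. Fn1 was low there at 0.0118%. The bile duct gene Krt19 at 0.0152% and the glial glutamate carrier gene Slc1a3 at 0.0135%, each the only gene of its list, were highest on animal 6 but below background on all arrays.

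On animal 1 Apoa1 was high at 9.06%, the lysosome list at 1.58%, the gap and tight junction list at 0.437% and its connexin gene Gjb2 at 0.170%. Dmgdh, which demethylates dimethylglycine, was low there at 0.0823%. Col1a1 at 0.0397% and Acta1 at 0.0119% were highest on animal 1, the latter below background.

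On animal 3 G6pc was high at 1.35%. On animal 5 Apoa4 was high at 0.274%, and Col1a2 was highest at 0.00785%, below background.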

How the results depend on the processing

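The shares of the brightest gene, the 10 brightest genes and the 4 largest classes stayed within 1 SD of their values with the median of spots, values below 0 kept, the authors' value table, and each animal left out (ranges 15.6% to 19.4% for Alb and 62.5% to 64.4% for the 10 genes). Intensity without background subtraction, which spreads a constant over all genes, moved them: Alb to 8.54%, the 10 genes to 32.7%, hepatocyte identity to 19.8%, plasma proteins to 14.9%, apolipoproteins to 11.5% and iron and metal binding to 5.14%, and it moved the median rank correlation to 0.709. With blanked spots kept, single bright spots entered the sums and the 10 genes took 59.5%. The median CV was 62.7% without scaling to shares, 34.1% to 43.9% with an animal left out, and, with Alb left out of the sum, an alternative chosen after seeing the data, 37.8%. The median rank correlation was 0.783 to 0.849 with an animal left out. Genes above background on every array used numbered 55 to 87 with an animal left out, the latter without animal 6. The muscle list averaged 0.515%, and 0.101% without animal 6. For sex, 1 gene was called without normalization, alpha-1-B glycoprotein-like, with limma adjusted p = 0.0322; the smallest adjusted p over the 14 alternatives ran from 0.0322 to 0.999, and the cause was not tested. Slc6a6 changed sign with the naming series as a block, to 0.019. For series B against C, 0 to 20 genes were called with an animal left out, 20 of them without animal 7. No paired analysis was possible because only wild type arrays were used, each of another animal.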

Other observations

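Some genes known mainly from other organs read above background in liver. Nppa, the atrial natriuretic peptide gene, passed on 6 of 7 arrays, with intensities there from 9.65 on animal 2 to 55 on animal 1. On animal 6 it read 6.75, below the limit. In contrast, the inflammatory cytokine genes Il6, Il1b and Tnf were above background on no array, with intensities of at most 4, 2.25 and 2.5.

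The brightest blanked spot belonged to Slc9a4, a sodium-proton exchanger of the stomach, on animal 3. It read 20950 above background, while the kept spots of that oligonucleotide averaged 5.5. No kept spot on any wild type array exceeded an intensity of 9880.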
